A study of Procambarus clarkii with 12 samples.

Results

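The lowest cadmium dose of a crayfish exposure experiment was set against its unexposed controls, 6 of the 12 RNA-seq libraries of the study. All libraries came from the hepatopancreas of male red swamp crayfish (*Procambarus clarkii*). The 3 libraries titled Cd2_1 to Cd2_3 were from animals given 2 mg/L cadmium for 72 h. The 3 titled Control1 to Control3 were from animals kept for the same time at 0 mg/L. Tissue was flash frozen and total RNA was extracted with Tri Reagent in all groups. The other 6 libraries were from animals at 5 and 10 mg/L, with 3 libraries each. The libraries were chosen by their titles alone, and no measured value entered that choice. The labels give no cadmium salt, strain, age or source of the animals and do not say whether a library was 1 animal or a pool. The p-values below therefore measure the spread between these samples, which may be technical.

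The hepatopancreas is the digestive gland of crustaceans. It secretes digestive enzymes, stores lipid and glycogen, and is a main site where metals are taken up and bound. Cadmium is a toxic metal with no known role in crayfish. In animals it binds to thiol groups, displaces zinc and calcium, and induces metallothioneins, small cysteine-rich proteins that bind metals. The question of the comparison was how far transcript levels in this gland differed from the controls at the lowest of the 3 doses.

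The files gave an estimated read count for each of 176325 gene clusters, features named by a numeric identifier. How the clusters were built is not given in the sources used here. The files paired 0 identifiers with a gene name, so the labelled tissue could not be checked against its marker genes. No gene family, metallothioneins included, could be followed. The clusters are described here by their level, their length and their behaviour in each library, and 4 identifiers are named. Of all clusters, 151468 had a count in at least 1 of the 6 libraries. The low-count filter left 57151 clusters for testing, with 98.8% of the counts of the 6 libraries. Levels are given as CPM, counts scaled to one common library total, with TMM, a correction for composition. Library totals were 15835655, 16905608 and 17480297 counts at 2 mg/L, against 21160347, 20548624 and 19490610 in the controls. Every 2 mg/L library was thus shallower than every control. A difference of depth cannot be told apart from the dose in any count of clusters detected or absent. In a whole gland, fewer cells of a type and less RNA per cell cannot be told apart either.

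At 2 mg/L 1 cluster rose and 4 fell among the 57151 tested (edgeR quasi-likelihood test over all 12 libraries, adjusted p under 0.05). These 5 calls were 0.00875% of the clusters tested, with 0.00175% higher and 0.00700% lower. In 4 of the 5, one group had no counts at all. The cluster that rose was Cluster-27942.52731. It had 18.0, 12.6 and 11.8 CPM in the 2 mg/L libraries, against 0 counts in all 3 controls. Set against 3 counts summed over the controls, a limit that covers counting error only, it was at least 275-fold higher (edgeR adjusted p = 0.015).

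The most abundant cluster that fell, Cluster-27942.49753, had counts in every library. It had 1.07, 1.35 and 1.48 CPM at 2 mg/L, against 33.7, 41.0 and 60.0 CPM in the controls. Every 2 mg/L library was far below every control, and the spread within each group was small beside that distance. The fitted log2 fold change was -5.10 ± 0.44 (standard error, edgeR adjusted p = 0.0137). For Cluster-27942.44902 there were 0 counts in all 3 libraries at 2 mg/L, against 23.2, 17.1 and 10.3 CPM in the controls. Its level was thus at least 282-fold lower, by the same limit for the group without counts (edgeR adjusted p = 0.0137). The other two called clusters also had no counts at 2 mg/L, against 12.6 ± 3.72 and 3.16 ± 1.08 CPM in the controls (SD, n = 3). They were at least 211-fold and 52.9-fold lower.

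No other cluster passed the test in the upward direction. Of the clusters at 10 CPM or more whose groups did not overlap, the one higher at 2 mg/L with the smallest p was Cluster-27942.73154. It had 126, 125 and 172 CPM at 2 mg/L, against 44.7, 38.5 and 32.4 CPM in the controls. The lowest 2 mg/L library was thus well above the highest control. Its log2 fold change was 1.87 with standard error 0.31, and it did not pass the correction (edgeR adjusted p = 0.387).

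The same clusters were then read in the libraries of the higher doses. Over all clusters tested, edgeR called 6 at 2 mg/L against 5 mg/L (0.0105%) and 7 at 2 mg/L against 10 mg/L (0.0122%). It called 0 at 5 mg/L against the controls, with 3149 at an unadjusted p under 0.05, and 4 at 10 mg/L against the controls (0.00700%). Both of these share the controls with the comparison at 2 mg/L. Cluster-27942.49753 averaged 48.9 ± 9.33 CPM at 5 mg/L and 59.8 ± 26.5 CPM at 10 mg/L (SD, n = 3 each). Its level at 2 mg/L was below both of these, with log2 fold changes of -5.23 ± 0.45 against 5 mg/L and -5.52 ± 0.45 against 10 mg/L (± standard error, edgeR adjusted p = 0.0109 and 0.00998). Cluster-27942.44902 averaged 15.2 ± 5.38 CPM at 5 mg/L and 14.1 ± 3.50 CPM at 10 mg/L (SD, n = 3 each). It too was lower at 2 mg/L than at either (edgeR adjusted p = 0.0109 and 0.00998). The other two clusters that fell had counts in all 6 libraries at 5 and 10 mg/L, from 6.53 to 19.9 CPM in one and from 3.54 to 4.90 CPM in the other. The 4 clusters that fell at the lowest dose were therefore present in every library of the other 3 groups. The calls came from a fit over all 12 libraries, in which a cluster of uneven level at any dose is less likely to be called. Steady presence at the higher doses was thus partly a result of the choice. The p-values against 5 and 10 mg/L also reuse the 2 mg/L libraries on which the clusters were picked.

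The clusters higher at 2 mg/L had another course. Cluster-27942.52731 had 8.12, 4.01 and 3.64 CPM at 5 mg/L and 41.2, 28.9 and 14 CPM at 10 mg/L, and so had counts in every exposed library. Against the controls on which it was picked, this cluster also passed the test at 10 mg/L (edgeR adjusted p = 0.0265). At 5 mg/L against the controls it did not pass (edgeR adjusted p = 0.0551). Its level at 2 mg/L lay between the means at 5 and 10 mg/L. That level did not pass the test against 5 mg/L (log2 fold change 1.43 ± 0.53 standard error, edgeR adjusted p = 0.822) or against 10 mg/L (-0.99 ± 0.52, edgeR adjusted p = 0.511). Cluster-27942.73154 averaged 81.3 ± 30.6 CPM at 5 mg/L and 85.3 ± 1.99 CPM at 10 mg/L (SD, n = 3 each), below every 2 mg/L library. These differences did not pass the test either (edgeR adjusted p = 0.822 and 0.445).

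**Figure D1:**
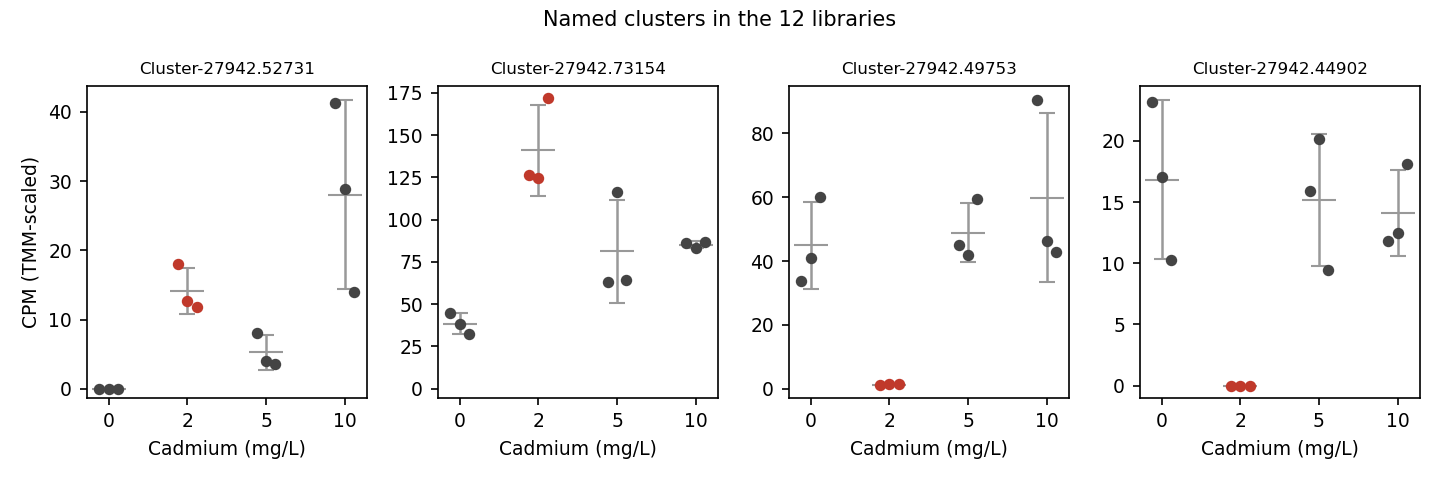
Level of the 4 named clusters in each of the 12 libraries. Points are libraries in CPM, red at 2 mg/L, and grey marks give the mean ± SD of 3. Cluster-27942.49753 lay between 1.07 and 1.48 CPM at 2 mg/L and at 33.7 CPM or more in every other library.

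The number of calls was small and depended on single libraries. Without control replicate 1 or 2, or without 2 mg/L replicate 3, edgeR called 0 clusters, with 3490, 3575 and 3268 at an unadjusted p under 0.05. Without 2 mg/L replicates 1 and 2 in turn it called 13 and 16, and without control replicate 3 it called 3. Each of these fits filtered the clusters anew. On the same 57151 clusters, leaving out control replicate 1 gave 9 calls in place of 0, while 14 and 20 clusters were called without 2 mg/L replicate 1 and without replicate 2. The left-out libraries of the other doses that moved the count by over 1.5 times were 5 mg/L replicates 2 and 3 (3 calls each) and 10 mg/L replicates 2 and 3 (2 and 3 calls). With only the 6 libraries compared it called 0, with 2931 at an unadjusted p under 0.05, while DESeq2 called 1295 of 55943 (2.31%) in all 12 libraries. Limma-voom called 5, of which 1 was among the 5 of edgeR. Among the 57151 clusters 3716 (6.50%) had an unadjusted p under 0.05 in edgeR, 1483 of them higher at 2 mg/L (2.59%) and 2233 lower (3.91%). Limma on log2(FPKM + 1) called 37 (0.0647%).

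Effect sizes were then described over all clusters, whether or not they passed the test. An effect size was the log2 ratio of the mean CPM at 2 mg/L over the mean CPM of the controls. A group without counts was set to 3 counts over the group. The median over 56697 clusters was -0.03, and the median size regardless of direction was 0.67, with 36.2% of clusters at 2-fold or more. The median size was 0.88 below 1 CPM (25869 clusters), 0.58 at 1 to 10 CPM (23559), 0.42 at 10 to 100 CPM (6131), 0.38 at 100 to 1000 CPM (994) and 0.37 at 1000 CPM and over (144). The share of clusters at 2-fold or more was 45.4% in the lowest class and 18.1% in the highest. This order of the classes depended on the scale. On log2(FPKM + 1) the median sizes were 0.22, 0.33, 0.40, 0.42 and 0.37 from the lowest to the highest class, so that the lowest class had the smallest. The top of the order also depended on single libraries. Without 2 mg/L replicate 1 the median size was 0.53 at 1000 CPM and over and 0.45 at 10 to 100 CPM, and without control replicate 1 it was 0.519 and 0.445.

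The class medians of the signed ratio stayed close to 0. They were -0.10, -0.01, 0.04, 0.02 and -0.11 from the lowest to the highest class. With library size alone as scaling, which raised the median of all clusters by 0.08, the median of the 1 to 10 CPM class was 0.07 and that of all clusters 0.05. Both signs thus turned with the scaling. The most abundant class was skewed: its lower 5% point was -2.67 and its upper 5% point was 0.90.

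**Figure D2:**
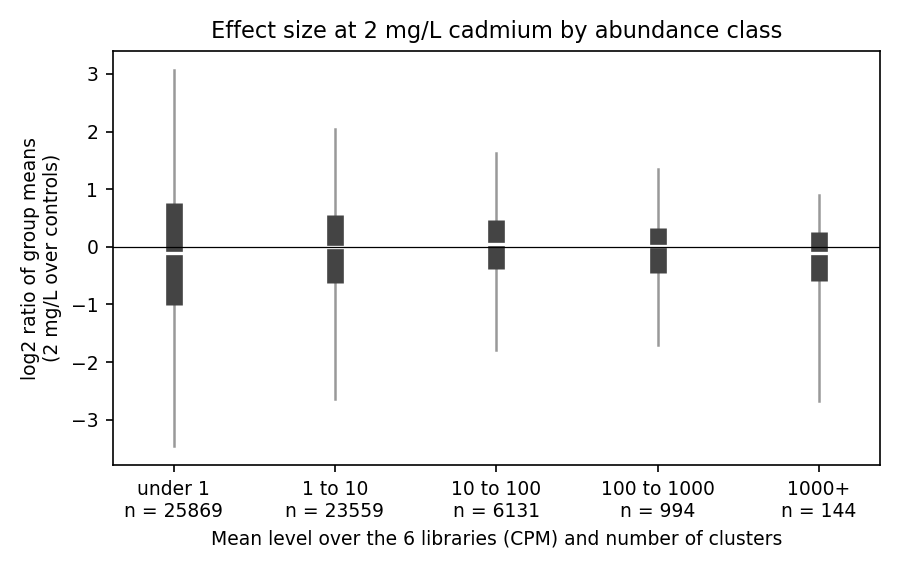
Effect size at 2 mg/L over controls by abundance class. White lines are medians, thick bars run between quartiles and thin lines between the 5% and 95% points of clusters, on a log2 scale. The quartiles narrow from -1.0 and 0.76 below 1 CPM to -0.60 and 0.26 at 1000 CPM and over, where the thin line reaches further down than up.

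Libraries of one group differed from each other almost as much as libraries of different groups. The measure was the median size of the log2 ratio between 2 single libraries, over clusters with counts in both. It averaged 0.73 over the 9 pairs of a 2 mg/L and a control library. The 3 pairs of 2 mg/L libraries and the 3 pairs of controls each averaged 0.65. The excess between groups was 0.08 (one-sided exact permutation test over 10 partitions, p = 0.1, the smallest the design allows).

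The excess was largest at 10 to 100 CPM, where pairs between groups averaged 0.53 and pairs within groups 0.44. All 9 pairs between groups lay between 0.46 and 0.58 there, while the 6 within lay between 0.42 and 0.46, so that the ranges overlapped at their edges only. Above 1000 CPM the means were 0.66 between groups and 0.64 within (exact permutation p = 0.5), so that distance could not be told from the spread within groups. At 100 to 1000 CPM the closest of all 15 pairs was 2 mg/L replicate 1 with control replicate 1, at 0.43, a pair of different groups. Adjusted over the 5 classes, the exact permutation p was 0.167 for the 3 lowest classes, 0.25 at 100 to 1000 CPM and 0.5 above.

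**Figure D3:**
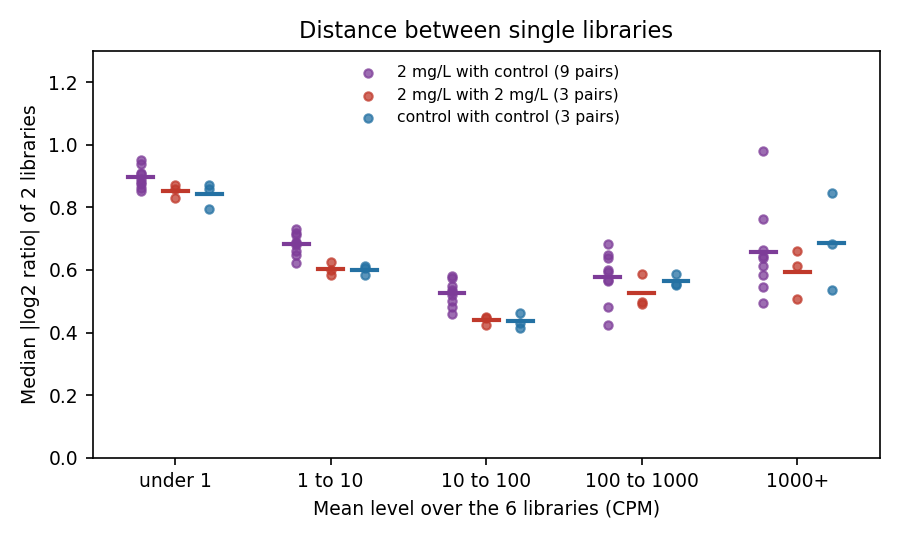
Median size of the log2 ratio between 2 single libraries by abundance class. Points are pairs and short lines their means, for 9 pairs of different groups, 3 pairs at 2 mg/L and 3 pairs of controls. Pairs between groups stand out most from pairs within groups at 10 to 100 CPM (means 0.53 and 0.44). The points mix above 100 CPM and also below 1 CPM, where pairs between groups start at 0.85 and pairs of controls reach 0.87.

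The spread inside the groups was alike. The median coefficient of variation was 57.4% at 2 mg/L and 57.3% in the controls. At 10 to 100 CPM it was lowest, at 29.1% and 29.3%. Above 1000 CPM it was 37.2% at 2 mg/L and 39.6% in the controls. A count of 0 in 1 or 2 of the 3 libraries occurred in 17141 tested clusters at 2 mg/L and in 17130 in the controls.

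The ranges of the groups did not overlap in 8717 clusters, 15.3% of those tested. A share of about 0.1 would be expected if every order of the libraries were equally likely. Whether the observed shares exceed it was not tested. In 4004 of them (7.01%) every 2 mg/L library was above every control, and in 4713 (8.25%) every one was below. This excess of lower clusters turned with the scaling: with library size alone 4301 were higher and 3816 lower. The share without overlap was 11.9% below 1 CPM, 17.1% at 1 to 10 CPM, 21.8% at 10 to 100 CPM, 19.6% at 100 to 1000 CPM and 16.7% at 1000 CPM and over. It was thus highest in the class where the spread within groups was lowest.

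The numbers above and below the controls were then counted by class, and differences between classes were not tested. At 10 to 100 CPM 744 clusters lay above the controls and 595 below. The numbers were 806 and 427 with library size alone and 786 and 562 with DESeq2 size factors. Both scalings raised the ratios, with a median over all clusters of 0.05 and -0.01, against -0.03 with TMM. They favour higher clusters and so cannot serve as a check on this excess. The split of this class with a library left out is not given here. At 1 to 10 CPM 1869 lay above and 2158 below, which turned to 1989 and 1709 with library size alone. At 100 to 1000 CPM the numbers were 91 and 104, which turned to 115 and 86 with library size alone. At 1000 CPM and over 5 lay above and 19 below. In that class library size alone gave 9 and 17, so the share of higher clusters was 34.6%, against 20.8% with TMM.

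**Figure D4:**
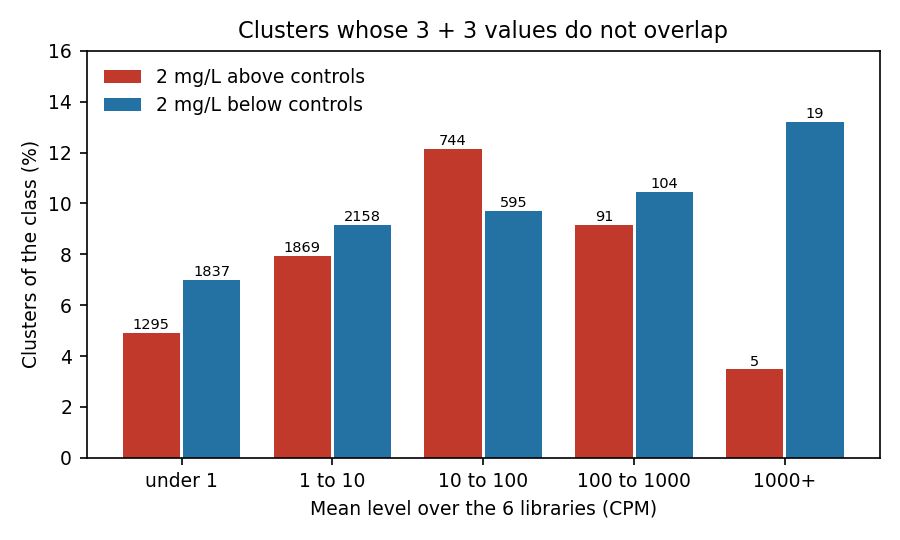
Share of each abundance class in which all 3 libraries at 2 mg/L lay above (red) or below (blue) all 3 controls, with the number of clusters over each bar, on TMM-scaled CPM. With this scaling the red bar is the taller one only at 10 to 100 CPM, while library size alone also makes it taller at 1 to 10 and 100 to 1000 CPM. The blue one stands out most at 1000 CPM and over, with 19 clusters against 5.

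Most gaps between the ranges were narrow. Among the 3685 clusters above the controls with counts in both groups, the lowest 2 mg/L value was a median of 1.24-fold over the highest control. For the 4196 clusters below the controls with counts in both groups the median gap was 1.28-fold. The gap was at least 2-fold in 494 higher and 735 lower clusters, and at least 4-fold in 146 and 176. At 10 CPM or more it was at least 2-fold in 78 of 840 higher and 109 of 718 lower clusters. Conversely, a large ratio of means often came with overlap: of the 20520 clusters at 2-fold or more, 28.7% had ranges that did not overlap. This share was 22.8% below 1 CPM and 61.5% at 1000 CPM and over.

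The 24 clusters at 1000 CPM and over without overlap were examined one by one. None passed the test, and the smallest edgeR adjusted p was 0.762. The 19 lower ones had log2 ratios from -8.38 to -0.39 with a median of -1.96, and 9 were at 4-fold or more. The largest ratio belonged to a cluster with 14.9, 14.9 and 15.7 CPM at 2 mg/L, against 4117, 3939 and 7104 CPM in the controls. Its groups were 333-fold apart in their means. Its 5 mg/L libraries held 3737, 21.5 and 983 CPM and its 10 mg/L libraries 16.3, 4.95 and 2772 CPM. Levels like those of the 2 mg/L libraries and levels like those of the controls thus both occurred among the other libraries.

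Another of the lower clusters had 1536, 305 and 1000 CPM at 2 mg/L, against 5971, 5441 and 12691 CPM in the controls, 8.48-fold apart in their means. In 17 of the 19 the highest control was replicate 3, and in 15 of the 19 the highest 2 mg/L library was replicate 1. The same counts over all 144 clusters of the class are not given here, so these are not shown to be particular to the 19. Without control replicate 3 the median log2 ratio of the 19 was -1.69 and 8 were at 4-fold or more. Without 2 mg/L replicate 1 it was -2.82 and 10 were at 4-fold or more. The list of 19 was picked on all 6 libraries and kept fixed here, so leaving a library out could not turn a direction. The part of these libraries in the result was not tested.

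Of the 5 abundant clusters that were higher, one had 2926, 2652 and 2912 CPM at 2 mg/L, against 366, 254 and 390 CPM in the controls. It was 8.41-fold apart in the means, with little spread in either group. Its level was uneven at the higher doses, with 1076, 196 and 3496 CPM at 5 mg/L and 7261, 4924 and 1812 CPM at 10 mg/L. Replicate 2 at 5 mg/L was thus below every control. Another had 3135, 6758 and 5289 CPM at 2 mg/L, against 1914, 1981 and 2212 CPM in the controls. The one with the largest ratio rested on an uneven control group. It had 1216, 2302 and 2373 CPM at 2 mg/L, against 643, 1.3 and 0 CPM in the controls.

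No class total differed between the groups beyond the spread within them. Clusters at 1000 CPM and over held 44.3% ± 3.39 of all counts at 2 mg/L and 46.1% ± 2.20 in the controls (SD, n = 3 each). The ranges overlapped (exact permutation p = 0.6, adjusted 0.7 over the 5 classes). For the 10 to 100 CPM class the shares were 17.5% ± 1.52 and 16.5% ± 1.32 (SD, n = 3 each, exact permutation p = 0.5).

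Clusters below the controls were shorter than those above. A length could be computed for 57150 tested clusters from the deposited count and FPKM, and it is the authors' length only as far as those values imply it. Clusters above the controls had a median of 1509 bases, clusters below 1169 bases, and clusters with overlap 1430 bases. Among the 12153 clusters under 500 bases, 5.77% lay above the controls and 10.0% below. At 500 to 1000 bases the shares were 7.22% above and 9.27% below. At 1000 to 2000 bases they were 7.54% and 7.89%, at 2000 to 4000 bases 7.29% and 7.46%, and at 4000 bases and over 7.17% and 5.87%. With library size alone the order turned at 500 to 1000 bases (7.59% above and 7.35% below), at 1000 to 2000 bases (8.12% and 6.46%) and at 2000 to 4000 bases (7.562% and 6.002%). With DESeq2 size factors it turned at 1000 to 2000 bases (7.909% and 7.504%) and at 2000 to 4000 bases (7.661% and 7.195%). At 4000 bases and over it turned without control replicate 2 (10.63% above and 10.71% below) and without control replicate 3 (10.05% and 10.83%).

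The short clusters lay more often below than above in each abundance class. Clusters of all lengths together did so too, except at 10 to 100 CPM (12.1% above and 9.7% below). At 1000 CPM and over 9.6% of the short clusters lay below, which was less than the 13.2% of the whole class. At 10 to 100 CPM the shares under 500 bases were 7.06% above and 12.7% below, against 15.04% above and 7.18% below at 4000 bases and over. For clusters under 500 bases the order also held with library size alone (6.72% above and 8.18% below), with DESeq2 size factors (6.13% and 9.43%) and without each of the 6 libraries in turn. Their share of the tested counts was 23.5% ± 2.08 at 2 mg/L and 24.1% ± 0.89 in the controls (SD, n = 3 each, exact permutation p = 0.9).

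The first number of the identifier was 27942 for 50055 tested clusters. Their ranges did not overlap in 15.6%, against 13.0% of the 7096 others. At equal level the shares were close, 11.96% and 11.64% below 1 CPM and 17.1% and 17.2% at 1 to 10 CPM. Outside 27942, 747 first numbers were shared by 2 or more tested clusters. At least 1 cluster had ranges that did not overlap in 204 of these 747 sets. In 32 sets at least 2 clusters did, all in one direction in 17 sets and in both directions in 15. The numbers expected from the share over all these clusters were not computed, so nothing is drawn from these counts.

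Clusters were called gained when every 2 mg/L library had at least 10 counts and every control 0, and lost in the reverse case. By this rule 175 clusters were gained (0.0992% of 176325) and 303 were lost (0.172%). With at least 1 CPM in every library of the group in place of 10 counts, 94 were gained and 178 lost. Lost clusters thus outnumbered gained ones by either measure, in the comparison where the controls were also the deeper libraries. At 5 mg/L, with the same controls, 181 were gained and 147 lost, and at 10 mg/L 137 and 308. A gained cluster had a median of 2.08 CPM at 2 mg/L and a lost one a median of 2.22 CPM in the controls. At 10 CPM or more there were 21 gained and 44 lost clusters. Gained clusters held 0.111% ± 0.00877 of the counts at 2 mg/L, and lost ones 0.205% ± 0.00574 of the counts of the controls (SD, n = 3 each).

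Among the 175 gained clusters 1 passed the edgeR test, and among the 294 lost clusters that were tested 3 did. At an unadjusted p under 0.05 there were 173 and 289, a direct result of how they were chosen. Both sets had longer sequences than the median of 1413 bases over all tested clusters, with medians of 2012 bases for gained and 2024 for lost clusters. Level was not matched in this comparison, and the rule of at least 10 counts leaves out many clusters of low level. Over tested clusters the median length was 1138 bases below 1 CPM, 1658 at 1 to 10 CPM and 1885 at 10 to 100 CPM. It was 1178 at 100 to 1000 CPM and 846 at 1000 CPM and over. An estimated count that differed from a whole number by 1e-06 or more occurred in 90.3% of gained and 92.7% of lost clusters. For this, any 2 mg/L library sufficed for a gained cluster and any control for a lost one. The same share over all clusters is not given here, so it is not shown to be particular to these sets.

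Presence of these clusters varied among the libraries at 5 and 10 mg/L. Of the gained clusters 157 (89.7%) had counts in some of those 6 libraries and 0 in others, and so did 266 of the lost clusters (87.8%). The same share over clusters of like level is not given here. Of the 57151 tested clusters, 17141 had a 0 in 1 or 2 of the 3 libraries at 2 mg/L and 17130 in the controls. Mixed presence is thus not shown to be particular to these sets. Among the 175 gained, 14 had no counts in any of the 6 and 2 had at least 10 counts in all of them. Among the 303 lost, 10 had no counts in any of the 6 and 13 had at least 10 counts in all of them. All 3 libraries at 5 mg/L had at least 10 counts in 16 gained and 53 lost clusters, and all 3 at 10 mg/L in 13 and 51.

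**Figure D5:**
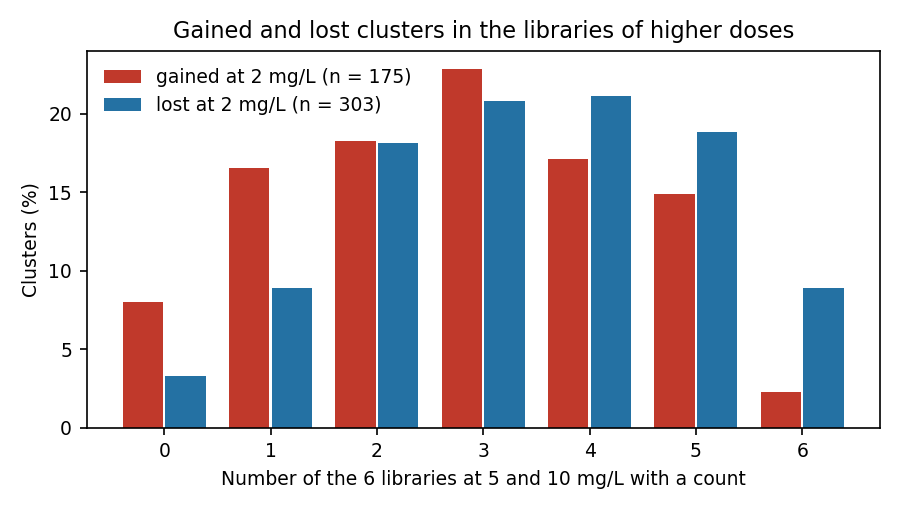
Share of the 175 gained (red) and 303 lost (blue) clusters by the number of the 6 libraries at 5 and 10 mg/L that held a count. Both sets are spread over 0 to 6 libraries, with 8% of gained and 3.30% of lost clusters in none and 2.29% and 8.91% in all 6.

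The most abundant gained cluster had 180, 177 and 259 CPM at 2 mg/L, against 0 counts in the controls. It held 308, 326 and 399 CPM at 5 mg/L, 57.7 CPM in 10 mg/L replicate 1 and 0 in the other two 10 mg/L libraries. The gained cluster of rank 3 by level had 24.9, 37.4 and 59.2 CPM at 2 mg/L, against 0 counts in the controls and in all 6 libraries of the higher doses. It did not pass the test (edgeR adjusted p = 0.387).

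The most abundant lost cluster had 0 counts at 2 mg/L, against 186, 345 and 246 CPM in the controls. It held 436, 0.13 and 487 CPM at 5 mg/L and 750, 361 and 598 CPM at 10 mg/L. One library at 5 mg/L was thus close to the level of the 2 mg/L libraries. The lost cluster of rank 3 had 0 counts at 2 mg/L, against 67.4, 103 and 35.7 CPM in the controls. It had 0, 82.0 and 0 CPM at 5 mg/L and 21.6, 35.1 and 9.70 CPM at 10 mg/L.

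Clusters detected with at least 1 count numbered 98213, 94905 and 88136 at 2 mg/L, against 106924, 97218 and 98269 in the controls. The ranges overlapped, with a mean difference of -7052 (exact permutation p = 0.2). Clusters with at least 10 counts numbered 38074 ± 1981 at 2 mg/L and 43031 ± 3859 in the controls (SD, n = 3 each). That difference of -4957 had exact permutation p = 0.1, the smallest possible with 3 against 3. At the expected number for one common depth, the smallest library total, the difference in clusters with at least 1 count was -3990 (exact permutation p = 0.5).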

How the data were processed

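For every library the authors deposited estimated counts of gene clusters, without scaling, and FPKM, which scales them by length and depth, per the file headers. Assembler, aligner, counting tool, build and filters: not given in the sources used here. Of the nonzero estimated counts 58.0% were whole to within 1e-06, and 0 identifiers matched the RefSeq gene table.

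Libraries were grouped by title. Counts were rounded, filtered with filterByExpr (minimum count 10, minimum total 15) and scaled by TMM. All 12 libraries entered a quasi-likelihood fit in edgeR 4.0.16 (R 4.3.3), in which each group had its own mean, with Benjamini-Hochberg adjustment over all 57151 clusters. The common biological coefficient of variation was 1.12. A standard error is the fitted log2 fold change divided by the square root of F. Abundance classes used the mean CPM over the 6 libraries. Detection at one depth was computed by exact rarefaction. The fits were tested on simulated counts, with recovery of changed clusters required of edgeR only at a dispersion of 0.05. That is far below the dispersion of these data, whose square root is the coefficient of 1.12. The descriptive measures were tested on simulated counts with counting error only.

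Alternatives were DESeq2 1.42.0, limma 3.58.1, other scalings and filters, the 6 libraries alone, the replicate number as a block and left-out libraries. At most 2 identifiers per direction are named: called clusters by level, then the smallest p at 10 CPM or more without overlap. The members, lists and tests were chosen with earlier results of these data known. Descriptions used scipy 1.17.1, pandas 2.3.3 and numpy 2.4.6 under Python 3.11.15, and matplotlib 3.10.9 drew the figures.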

Additional observations from a re-analysis of the deposited data

How the results depend on the processing

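Of the settings below, leaving out a library while testing the same clusters, and the scalings of the length comparison, were chosen after the data were seen. The 5 calls became 1295 with DESeq2, 37 with limma on log2(FPKM + 1), and 0 with only the 6 libraries compared. They became 0 with the replicate number as a block (edgeR, 2792 at an unadjusted p under 0.05). Deviations of same-numbered 2 mg/L and control libraries correlated at 0.0062, 0.014 and 0.0096 across clusters. Libraries of different numbers were not compared in this way, so whether the numbers pair the samples was not settled. With each of the 12 libraries left out, calls ran from 0 to 16, and with the same clusters tested from 0 to 20 over the 6 libraries compared (9, 0 and 3 without controls 1, 2 and 3, and 14, 20 and 0 without 2 mg/L libraries 1, 2 and 3). The cause of these shifts was not tested.

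Clusters without overlap numbered 15929 with no low-count filter (164856 clusters) and 2986 with at least 5 CPM in 3 libraries (15447 clusters), shares of 9.66% and 19.3%. With 1 of the 6 libraries left out they numbered 13716 to 14247, since fewer libraries had to be ordered and a larger share is then expected by order alone. The median size of the log2 ratio, 0.67, was 0.28 on log2(FPKM + 1) and 0.60 on log2(FPKM + 0.1), which pull low levels together, and 0.70 to 0.75 with a library left out. Lost clusters numbered 523, 171 and 178 at 5 counts, 20 counts and 1 CPM, and 506 to 775 with a library left out. Gained clusters numbered 304, 82 and 94, and 355 to 432. The difference in detected clusters ran from -9283 to -3992 with a library left out. The excess of pairs between groups was 0.07 to 0.08 in its 3 settings.

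With a library left out, edgeR adjusted p ran from 0.0366 to 0.0728 for Cluster-27942.52731, from 0.00906 to 0.0728 for Cluster-27942.49753, from 0.0285 to 0.0728 for Cluster-27942.44902 and from 0.191 to 0.788 for Cluster-27942.73154. DESeq2 alone called the last (adjusted p = 2.8e-08). Limma-voom lost Cluster-27942.52731 (adjusted p = 0.149) and Cluster-27942.44902 (0.0937). The spread within groups limits the precision in every class: the median coefficient of variation was 86.7% at 2 mg/L and 86.6% in the controls below 1 CPM, and 37.2% and 39.6% at 1000 CPM and over. Depth and spread were not separated.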
